A study of Mus musculus with 6 samples.

Results

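Islets of 100 to 200 µm in diameter (medium islets) were compared with islets under 100 µm (small islets) taken from the same antibody treatment. The comparison used 4 of the 6 arrays of the series, those of the medium and the small class, and 16129 of the 45281 probes, each with a detection p-value under 0.05 on at least 2 of these 4 arrays. The 13977 tested probes with a gene name stood for 10225 genes. All islets came from BALB/c mice that were 5 weeks old. Each mouse had been injected intraperitoneally with B29, a monoclonal antibody against serpin B13, or with a control IgG. Dosing began at 2 weeks of age with 25 µg each time, reached a total of 100 µg after 4 injections, and ended 2 weeks before the islets were taken. The 4 groups were medium islets with B29, medium islets with IgG, small islets with B29 and small islets with IgG, with 1 Illumina bead array each. A further diameter class, over 200 µm, supplied the other arrays. It is used here to place levels beside those of the compared classes and in some alternative fits, not in the main test. The labels do not say how many mice were pooled for an array, nor whether the diameter classes of 1 treatment came from the same mice. P-values therefore rest only on how far the B29 pair and the IgG pair disagree, moderated by the spread shared across probes. That disagreement may be technical, and any effect of the antibody on the size difference is counted in it as error.

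Pancreatic islets are clusters of hormone-secreting cells, mainly insulin-producing beta cells with alpha, delta and PP cells around and between them. They lie in exocrine tissue made of acinar cells, which fill zymogen granules with digestive enzymes, and of ducts that drain them. Islets are freed by digesting the pancreas, and acinar cells can stay attached to an islet's rim. In bulk samples such as these, fewer cells of a type and less RNA per cell cannot be told apart.

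Genes of acinar cells were lower in medium than in small islets with both antibodies. Lists of such genes held 33 of the 86 named genes that fell. Acinar genes are switched on by PTF1, a complex of PTF1A, RBPJL and an E protein that reads an E-box (CANNTG) and a TC-box (TTTCCC). The promoters of 4 acinar genes are shown because they let a reader see such letters: they are those with the largest falls, with log2 differences from -3.11 to -2.81, among the acinar genes whose window holds the E-box CACCTG. Each has 250 bases before and 50 after the RefSeq start site (build GRCm38.p6, 5′ to 3′ on the gene's strand), with CACCTG on either strand in capitals. Pdia2, a protein disulfide isomerase of the pancreas, lies at chr17:26199038-26199337 on the minus strand. Klk1, a glandular kallikrein, lies at chr7:44225110-44225409 on the plus strand. Aqp12, a water channel of acinar cells, lies at chr1:93006084-93006383 on the plus strand. Prss2, a trypsinogen, lies at chr6:41521526-41521825 on the plus strand.
Pdia2: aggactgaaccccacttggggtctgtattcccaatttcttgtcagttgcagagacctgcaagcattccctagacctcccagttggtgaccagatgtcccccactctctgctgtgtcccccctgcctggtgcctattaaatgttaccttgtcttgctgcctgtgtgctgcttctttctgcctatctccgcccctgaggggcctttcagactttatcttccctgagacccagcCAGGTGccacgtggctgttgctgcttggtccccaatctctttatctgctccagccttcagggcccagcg
Klk1: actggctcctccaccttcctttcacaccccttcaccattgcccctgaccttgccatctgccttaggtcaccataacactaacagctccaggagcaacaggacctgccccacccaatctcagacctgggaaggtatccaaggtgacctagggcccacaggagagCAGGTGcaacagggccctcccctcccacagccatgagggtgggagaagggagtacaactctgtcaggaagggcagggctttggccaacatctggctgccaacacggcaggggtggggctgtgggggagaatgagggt
Aqp12: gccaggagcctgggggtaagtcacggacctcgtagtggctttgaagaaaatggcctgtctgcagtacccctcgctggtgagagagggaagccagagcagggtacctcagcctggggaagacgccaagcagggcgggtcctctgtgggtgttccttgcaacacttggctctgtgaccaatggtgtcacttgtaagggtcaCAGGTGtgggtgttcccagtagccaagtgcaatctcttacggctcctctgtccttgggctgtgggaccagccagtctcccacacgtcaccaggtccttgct
Prss2: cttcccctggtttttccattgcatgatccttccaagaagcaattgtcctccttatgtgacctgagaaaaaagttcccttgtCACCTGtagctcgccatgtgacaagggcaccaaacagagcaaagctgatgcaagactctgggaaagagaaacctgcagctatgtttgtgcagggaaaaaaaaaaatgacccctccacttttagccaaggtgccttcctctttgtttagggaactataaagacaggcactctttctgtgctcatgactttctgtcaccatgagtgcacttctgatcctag
Of the 33 genes of the acinar lists with a probe that passed the test, 25 had such a window, 26 windows in all. CACCTG or its reverse complement was in 14 of these windows (53.8%), against 20.2% of all 32851 windows of the table. CAGCTG was in 7 (26.9%, against 16.3%) and the general E-box CANNTG, which includes both, in 21 (80.8%, against 72.3%). TTTCCC, searched on both strands, was in 6 (23.1%, against 25.2%), TGGGAAA, which overlaps it on the other strand, in 4 (15.4%, against 8.06%), and TATAAA in 9 (34.6%, against 13.6%). GGGAA, which is part of TGGGAAA and overlaps TTTCCC, was in 23 (88.5%, against 62.7%). These letter matches describe the windows only. Several of the windows belong to paralogous enzymes, and no binding was measured.

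The test, limma on the authors' log2 values with antibody as the pair, called 110 probes lower in medium islets (0.682% of the probes tested) and 11 higher (0.0682%) at a Benjamini-Hochberg adjusted p under 0.05. At an unadjusted p under 0.05 there were 1193 probes. Without any test, 76 probes were at least 2-fold lower with both antibodies (0.471%) and 5 were at least 2-fold higher with both (0.031%). All 121 called probes (0.75%) had the same sign with both antibodies. In 109 of the 110 lower ones both medium arrays lay below both small arrays, which 16.6% of all probes tested did. The paired test on these same arrays favours such probes, so neither count is separate evidence. The lower probes fell by 1.58 on the log2 scale in the median, with a range from -3.49 to -0.84, and the higher ones rose by 0.86 to 1.62. Of the 110 lower probes, 82 were detected on all 4 arrays. A further 10 were detected on neither medium array, so they passed the filter through the small arrays alone and their falls are only bounds. When only the 13213 probes detected on all 4 arrays were tested, 82 were lower and 11 higher. The median difference of all probes was 0.01 with an interquartile range of 0.26. With 1 residual degree of freedom a probe, these calls lean on the spread shared across probes. In simulated data 19.4% of the calls at an adjusted p under 0.05 were false, a larger share than the threshold states. The adjusted p-values may therefore be too small. No call was left when 45259 probes were tested without a filter (0 lower, 0 higher, 2951 at an unadjusted p under 0.05) and few were left when all 6 arrays entered (14 lower, 0 higher).

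**Figure D1:**
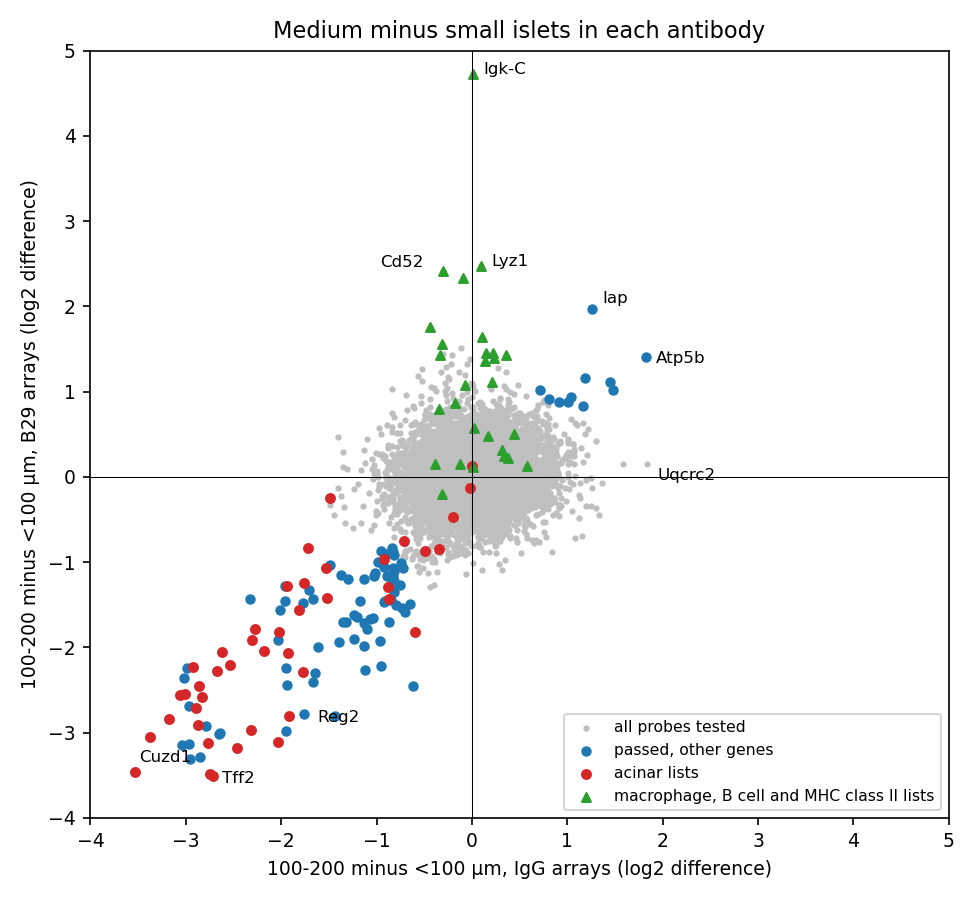
Difference between medium and small islets on the B29 arrays (vertical) against the IgG arrays (horizontal), in log2, for the 16129 probes tested; blue points passed the test, red points are the acinar lists and green triangles the macrophage, B cell and MHC class II lists. The acinar probes lie in the lower left, as low as -3.53 with IgG and -3.51 with B29, and immune probes such as Igk-C reach 4.72 on the B29 axis.

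Each antibody was also taken alone, with 1 array a class and no test. In the B29 pair 114 probes were at least 2-fold lower (0.707%) and 55 at least 2-fold higher (0.341%). In the IgG pair 108 were lower (0.67%) and 56 higher (0.347%). The 2 pairs share no array, and no probe was at least 2-fold apart in opposite directions. Across the 16129 probes the differences with B29 and with IgG had a Pearson correlation of 0.28 and a Spearman correlation of 0.07, and 51.9% had the same sign. Without the acinar lists the Pearson correlation was 0.20. These describe probes on 4 arrays, which are not independent replicates.

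Acinar genes fell as a group. Of the 36 tested genes on the 3 acinar lists (41 had a probe), 32 fell and none rose, against 82 genes lower (0.802%), 8 higher (0.0782%) and 90 either way (0.88%) among all 10225. Their median difference was -2.24, beside 0.01 for all genes, and 28 of the 36 were at least 2-fold lower with both antibodies (0.557% of all genes) and 0 were at least 2-fold higher with both (0.0293%). In 35 of them both medium arrays lay below both small arrays (16.8% of all genes). The summed linear level of the 36 genes was 92051 with B29 and 68424 with IgG in medium islets, against 235934 with B29 and 203874 with IgG in small islets. The lists were chosen with earlier results of these arrays known, so their direction is not independent evidence.

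Among the acinar proteases 12 of 14 fell, with a median of -1.96. Prss2 stood at 9.57 with B29 and 8.37 with IgG in medium islets, against 12.13 with B29 and 11.43 with IgG in small islets (log2 level). Both medium arrays were thus below both small ones, and Prss2 fell by 2.81 ± 0.19 (SE, n = 2 arrays a class, limma adjusted p = 2.09e-06). Ctrb1 (chymotrypsinogen B, -2.48), Ctrc (chymotrypsin C, -2.65), Cela1 (elastase 1, -2.11), Cpa1 (carboxypeptidase A1, -1.50) and Klk1 (-2.95) fell likewise. Try10, another trypsin, did not pass: it read 13.17 with B29 and 12.20 with IgG in medium islets, against 13.42 with B29 and 13.69 with IgG in small islets. Its difference was -0.25 with B29 and -1.49 with IgG, and Cela2a (elastase 2A) also did not pass, at -0.73 (adjusted p = 0.11, limma). Trypsin and kallikrein genes are close copies of each other, and a probe of 1 may bind the transcript of another.

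Of the lipases and other hydrolases 7 of 8 fell, with a median of -1.45. Pla2g1b, the pancreatic phospholipase A2, stood at 9.95 with B29 and 8.91 with IgG in medium islets, against 12.50 with B29 and 11.92 with IgG in small islets, a fall of 2.78. Pnliprp2 (a pancreatic lipase-related protein) fell on both of its probes, with a difference of -2.71 on the brighter and of -3.49 on the other, the largest fall of any tested probe. Cel (bile salt-stimulated lipase, -2.37), Clps (colipase, -1.30) and Rnase1 (-1.61) fell too. Amy1, an amylase, was not detected on either medium array, and its fall is at least 1.97-fold.

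Amy2a5, pancreatic amylase, differed between its 2 probes. The dimmer probe fell by 2.33 (limma adjusted p = 1.57e-05), with raw intensities of 1656 with B29 and 932 with IgG in medium islets, against 7842 with B29 and 5513 with IgG in small islets. The brighter probe had raw intensities of 15317 with B29 and 14763 with IgG in medium islets, against 17225 with B29 and 14862 with IgG in small islets, and a normalized difference of 0.07. That sign turned under cyclic loess, to -0.33. The 12 acinar genes with a mean level of 13 or above in small islets had a median of -1.65 and 9 of them passed, while the 17 between 10 and 13 had a median of -2.78 and all 17 passed, and the 7 under 10 had a median of -2.36 and 6 passed. The highest value any probe could take after the authors' normalization was 14.2 on every array. The part of signal near that ceiling in the smaller differences was not tested.

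Zymogen granule proteins and acinar regulators fell in 13 of 14 cases, with the lowest median of the lists at -2.72. Cuzd1, a protein of the zymogen granule membrane, had the largest fall by its brightest probe: 7.71 with B29 and 6.98 with IgG in medium islets, against 10.76 with B29 and 10.36 with IgG in small islets, a level 9.29-fold lower (log2 difference -3.22 ± 0.18, SE, limma adjusted p = 1.4e-06). Tff2, a trefoil peptide, stood at 7.70 with B29 and 7.33 with IgG in medium islets, against 11.19 with B29 and 10.08 with IgG in small islets, a difference of -3.12. Pdia2 (-3.11), Dmbt1 (a secreted scavenger receptor protein, -3.01), Gp2 (the major zymogen granule membrane glycoprotein, -2.89) and Aqp12 (-2.82) fell as well. The trypsin inhibitor Spink1 fell by 2.80. Serpini2, which is counted among the 13, was not detected on either medium array, and its fall is at least 1.885-fold.

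The transcription factors of the acinar program were lower as well. Ptf1a stood at 4.64 with B29 and 4.37 with IgG in medium islets, against 7.44 with B29 and 6.29 with IgG in small islets, and fell by 2.36 (limma adjusted p = 3.94e-05). It was detected on only 1 of the 2 medium arrays. Its partner Rbpjl fell by 2.64, to 5.23 with B29 and 5.28 with IgG in medium islets, against 8.19 with B29 and 7.60 with IgG in small islets. Bhlha15 (MIST1), which organises the secretory apparatus of acinar cells, did not pass: its brightest probe differed by -0.68 (adjusted p = 0.194), and its other probes by -0.59 and -0.08. Nr5a2 and Gata4 were detected on fewer than 2 of the 4 arrays and were not tested.

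**Figure D2:**
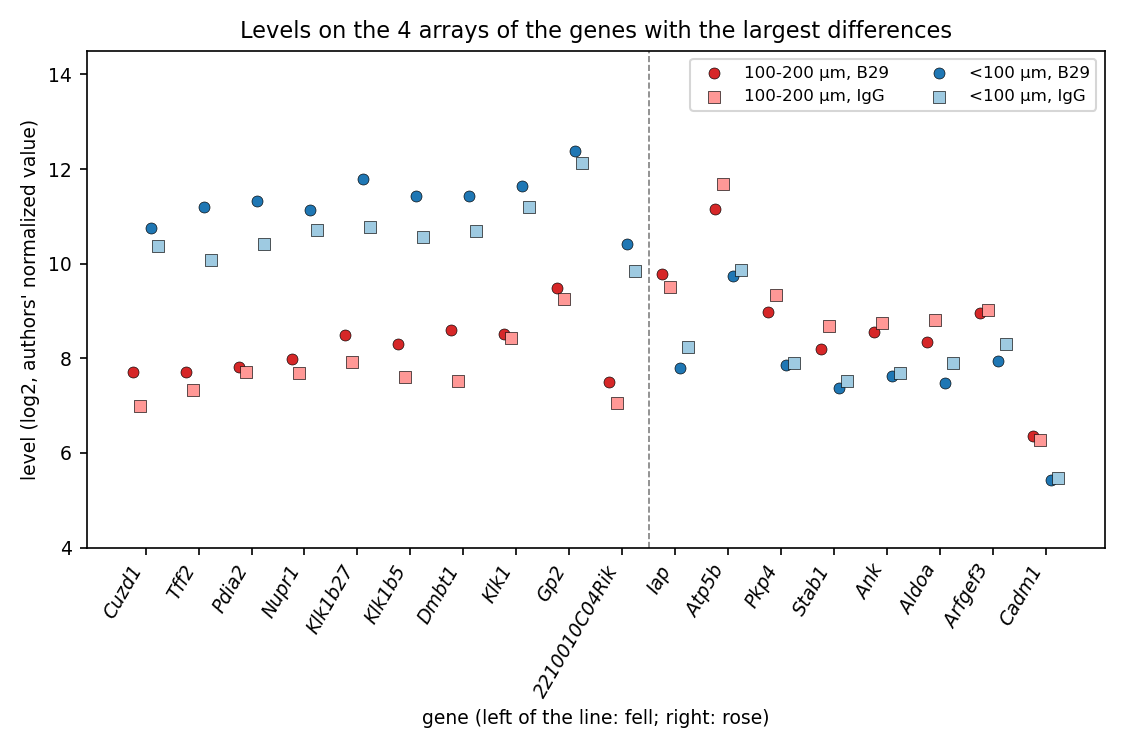
Normalized log2 level of 18 genes on each of the 4 arrays, the 10 named genes with the largest falls left of the dashed line and the 8 that rose right of it; red marks medium and blue small islets, circles B29 and squares IgG. For each of these genes both medium arrays lie on 1 side of both small arrays, with no overlap. The genes were chosen by the test on these same arrays, which favours such a gap.

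Of 8 tested kallikrein genes, a family close to Klk1 that was grouped by symbol after its values were seen, 5 fell and 0 rose, against 0.802% lower among all genes. Klk1b27 stood at 8.497 with B29 and 7.93 with IgG in medium islets, against 11.79 with B29 and 10.78 with IgG in small islets, a fall of 3.07. Klk1b5 (-3.05), Klk1b26 (-2.82) and Klk1b8 (-1.42) fell too, and Klk1 is counted with the proteases above. Nupr1, a stress-induced nuclear protein, stood at 7.98 with B29 and 7.68 with IgG in medium islets, against 11.13 with B29 and 10.72 with IgG in small islets. It fell by 3.09 and was the only 1 of 13 tested genes on the list of secretion machinery to pass. The rest of that list, which beta cells use as well, had values from -0.61 (Pdia3, a protein disulfide isomerase) to 0.26. The median of all 13, Nupr1 included, was -0.16. The gene 2210010C04Rik, which is on none of the lists, fell by 2.86.

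Reg genes, which encode lectin-like secreted proteins that acinar cells release in injury, all fell where tested, with a median of -1.62. That was 5 of 5, against 0.802% lower among all genes. Reg1 stood at 12.06 with B29 and 10.76 with IgG in medium islets, against 13.34 with B29 and 12.73 with IgG in small islets, a fall of 1.62. Reg2 stood at 6.83 with B29 and 4.16 with IgG in medium islets, against 9.61 with B29 and 5.92 with IgG in small islets. Its medium B29 array therefore lay above its small IgG array, although the paired fall of 2.27 passed (limma adjusted p = 9.71e-05). Reg3d (-2.09), Reg3a (-1.59) and Reg3b (-1.54) fell too, and Reg3b differed by -2.46 with B29 and by -0.62 with IgG. Reg2, Reg3a, Reg3b and Reg3d were each detected on 1 of the 2 medium arrays.

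In all, the lower probes with a name stood for 86 genes, and 44 of these were neither on the acinar lists nor among the kallikrein and Reg genes. Some were chosen here after their values were seen. Gal, the neuropeptide galanin, fell by 1.97. Cldn10, a claudin of tight junctions, fell on 3 probes, by 1.97, 1.44 and 1.42. Fgf21, a secreted metabolic factor, was not detected on either medium array, and its fall is at least 2.61-fold. Gamt, the enzyme that completes creatine synthesis, fell by 2.04, and Gnmt, a glycine methyltransferase, by 1.43. The small GTPase Rab26 fell by 1.15 and the ribosome-binding ER protein Rrbp1 by 0.99 on their brighter probes, with 0.00 and -0.12 on their others, and the ER peroxiredoxin Prdx4 by 1.25. The acinar lists do not hold every digestive enzyme gene: Amy2, an amylase, is among the 44 and fell by 0.91. Nupr1 and 2210010C04Rik, given above, are also among the 44. So are Gm10334 (-1.88), Gm5771 (-1.79), 1810009J06Rik (-1.28) and Gm5409 (-1.26). How many of the 44 encode digestive enzymes was not counted. The acinar lists moved in the same direction on the same arrays, and which cells of these samples express the 44 genes was not tested.

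Genes of the amino acid response and serine synthesis leaned lower. Of 9 tested, 2 fell (0.802% of all genes) and none rose (0.0782%). In 6 both medium arrays lay below both small ones (16.8% of all genes), and the median was -0.39. Aldh1l2, a mitochondrial folate enzyme, stood at 5.32 with B29 and 5.60 with IgG in medium islets, against 6.78 with B29 and 6.51 with IgG in small islets, and fell by 1.18, while its dimmer probe differed by -0.57 and did not pass. Chac1, which degrades glutathione, fell by 1.14. Asns (asparagine synthetase) was at -0.71 and did not pass (limma adjusted p = 0.137). Of 8 duct cell markers Muc1 alone fell, by 1.56 on its brightest probe. Sox9, a duct cell transcription factor, was at -0.59, the keratin Krt18 at -0.41 and the keratin Krt7 at 0.18, none of which passed, and the list's median was -0.09.

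Endocrine genes gave no call in either direction. Ins2, insulin, was at 14.20 with B29 and 14.20 with IgG in medium islets, against 13.97 with B29 and 14.20 with IgG in small islets, so that it held the top value of the array in 3 of the 4. Gcg (glucagon) stood at 13.84 with B29 and 13.97 with IgG in medium islets, against 13.65 with B29 and 13.76 with IgG in small islets. Sst (somatostatin) stood at 13.31 with B29 and 13.32 with IgG in medium islets, against 12.65 with B29 and 12.998 with IgG in small islets. The defining hormones of islets were thus bright on all 4 arrays, as the label requires. The differences of Ins2 (0.12), Gcg (0.20) and Sst (0.49) did not pass, and under cyclic loess they turned to -0.19, -0.19 and -0.13.

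Of 19 beta cell genes none passed, 8 were higher and 1 lower with both antibodies, and the median was 0.13. Over all probes 27.1% were higher with both antibodies and 24.9% lower. Isl1, an islet transcription factor, had the largest difference of the list at 0.69 (limma adjusted p = 0.149), with 10.18 with B29 and 10.46 with IgG in medium islets, against 9.44 with B29 and 9.83 with IgG in small islets. Slc2a2, the glucose transporter GLUT2, was at 0.13 and Iapp, the amyloid polypeptide, at 0.29. Alpha cell markers had a median of 0.10, with Ttr (transthyretin) at 0.60. The transcription factor Etv1, which is on the alpha list and on the delta and PP list, was at 0.51. Delta and PP cell markers had a median of 0.23, with Ppy (pancreatic polypeptide) at 0.66 and Pyy (peptide YY) at 0.57. The medians of the alpha list and of the delta and PP list turned to -0.03 and -0.07 under cyclic loess, while that of the beta list stayed above 0.

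Hormone processing and granule genes leaned higher without passing. Of 15 tested, 10 were higher with both antibodies, 1 (Vgf, a granule neuropeptide precursor) was lower, and in 9 both medium arrays lay above both small ones (18.5% of all genes). The median was 0.29 and stayed between 0.14 and 0.38 under the other scalings and background corrections tried. Cpe, the carboxypeptidase that trims prohormones, came nearest: 12.90 with B29 and 12.90 with IgG in medium islets, against 12.06 with B29 and 12.10 with IgG in small islets, a difference of 0.82 (limma adjusted p = 0.0534). Chga (chromogranin A) was at 0.63 on its brightest probe and at 0.55 and 0.03 on the others, Scg2 (secretogranin II) at 0.60 and Chgb (chromogranin B) at 0.58. The summed acinar level given above was lower on the same medium arrays, and its part in these small differences was not tested.

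**Figure D3:**
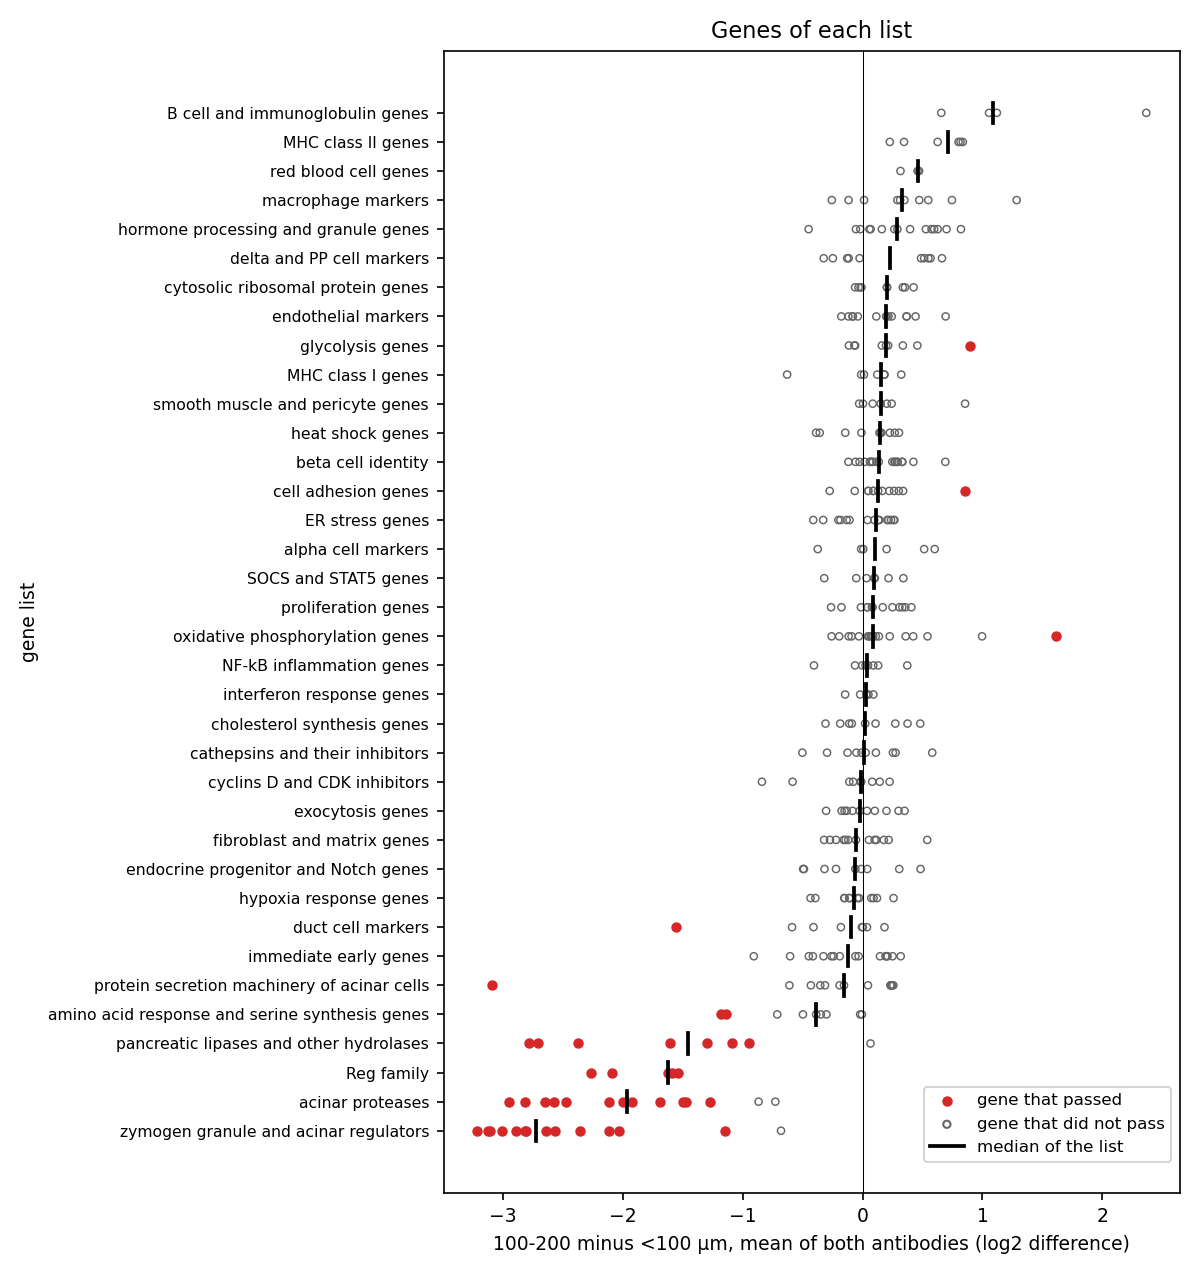
Mean log2 difference between medium and small islets of each tested gene, by gene list, sorted by the list's median (black bar); filled red points passed the test and open points did not. Acinar and Reg genes lie far to the left, with list medians from -2.72 to -1.45, and most other lists lie around 0.

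Few genes rose. Iap stood at 9.77 with B29 and 9.51 with IgG in medium islets, against 7.80 with B29 and 8.25 with IgG in small islets, and rose by 1.62 ± 0.20 (SE, n = 2 arrays a class, limma adjusted p = 0.00071). The platform's name Iap is kept as given. Atp5b, the beta subunit of mitochondrial ATP synthase, stood at 11.15 with B29 and 11.69 with IgG in medium islets, against 9.75 with B29 and 9.87 with IgG in small islets, and rose by 1.62 as well. It was the only 1 of 18 oxidative phosphorylation genes to pass. Atp5a1, which encodes the alpha subunit of the same enzyme, was at 0.23, and the list's median was 0.08.

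Pkp4, a plakophilin of cell junctions, rose by 1.28 on its brighter probe and stood at -0.04 on its other one. Stab1, a scavenger receptor of endothelial cells and macrophages, rose by 1.00 on 1 probe, while its other probe, which did not pass, was not detected on either medium array. Ank, a membrane pyrophosphate transporter, rose by 0.99, and Aldoa (aldolase A), 1 of 9 tested glycolysis genes, by 0.90. Arfgef3, which lies on insulin granules, and Cadm1, an adhesion molecule of islet cells, each rose by 0.86. Khk (ketohexokinase) rose by 1.17 on its dimmer probe, while its brighter one was at 0.18. Where probes of 1 gene disagreed, the data give no ground to prefer 1.

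On the medium B29 array alone, tested genes on the B cell and MHC class II lists stood high. Of 20 tested genes on the macrophage, B cell and MHC class II lists, 17 had their highest level on the medium B29 array, which 22.1% of all named genes did. In the B29 pair 11 of the 20 were at least 2-fold higher in medium islets (0.341% of all probes), with a median of 1.38 over the 20. In the IgG pair 0 of the 20 were (0.347% of all probes), 10 were higher and 10 lower by any amount, and the median was -0.04. The lists differed: the median in the B29 pair was 2.37 for the 4 B cell genes, 1.42 for the 6 MHC class II genes and 0.28 for the 10 macrophage genes, against -0.20, -0.02 and 0.11 in the IgG pair in the same order. The 4 B cell list genes were Igk-C, Cd79b, Cd52 and Coro1a. A further 5 genes of that list with a probe were not detected on enough arrays to be tested. None of the 20 passed the paired test. That test counts the disagreement between the pairs as error, so a gene high on the medium B29 array alone can hardly pass (SE 0.69 for Igk-C). The difference between the pairs was not tested because a fit with it leaves no residual degree of freedom.

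Igk-C, the immunoglobulin kappa constant region, stood at 9.28 with B29 and 4.95 with IgG in medium islets, against 4.56 with B29 and 4.94 with IgG in small islets. The medium B29 array stood alone, with a pair difference of 4.72 with B29 and 0.01 with IgG (mean 2.37, limma adjusted p = 0.277). Lyz1 (a lysozyme) stood at 8.91 with B29 and 7.09 with IgG in medium islets, against 6.43 with B29 and 6.997 with IgG in small islets. Cd52, a surface glycoprotein of lymphocytes, was at 2.41 with B29 and -0.30 with IgG, and Coro1a, a coronin of blood cells, at 2.33 with B29 and -0.09 with IgG. H2-Ab1, a chain of MHC class II, was at 1.45 with B29 and 0.22 with IgG, and Cd74, the invariant chain, at 1.40 with B29 and 0.23 with IgG. The summed linear level of the 4 tested B cell genes was 1004 with B29 and 116.3 with IgG in medium islets, against 103.7 with B29 and 133 with IgG in small islets. That of the 6 MHC class II genes was 1553 with B29 and 669.6 with IgG in medium islets, against 589.3 with B29 and 637.8 with IgG in small islets. The array therefore stood apart for both lists, and whether more immune cells or more RNA per cell were in that sample was not tested. The B cell marker Ms4a1 (CD20), the T cell markers Cd3e, Cd3g, Cd3d, Cd4 and Cd8a, and the macrophage markers Adgre1, Cd68 and Mrc1 were detected on fewer than 2 of the 4 arrays and were not tested. The macrophage markers Csf1r (0.51 with B29, 0.44 with IgG) and C1qb (0.31 with both) differed little between the pairs. Without the medium B29 array, in the additive fit of the other 5 arrays, the median of the MHC class II list was -0.01 and that of the B cell list -0.22, against 0.71 and 1.09 with it, while the macrophage list stood at 0.10, against 0.33 with it.

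**Figure D4:**
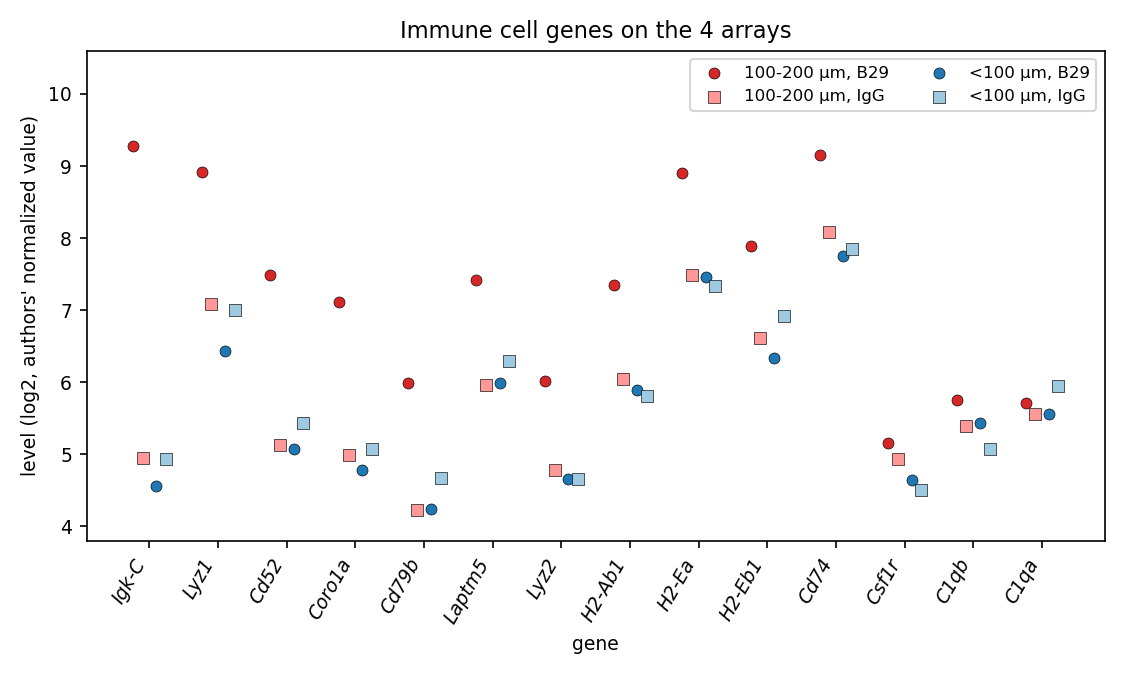
Normalized log2 level of 14 immune cell genes on the 4 arrays; red marks medium and blue small islets, circles B29 and squares IgG. For Igk-C, Lyz1, Cd52 and Coro1a the medium B29 array lies far above the other 3, while Csf1r, C1qb and C1qa lie close together.

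The IgG pair had its own large differences. Uqcrc2, a core subunit of respiratory complex III, stood at 9.68 with B29 and 10.13 with IgG in medium islets, against 9.53 with B29 and 8.29 with IgG in small islets. Its difference was 0.16 with B29 and 1.84 with IgG, and the small IgG array was the low 1. Jazf1, a zinc finger protein, was at 0.15 with B29 and 1.58 with IgG, and Adgrb3, an adhesion receptor, at -0.07 with B29 and 1.36 with IgG. None of these passed the paired test, which counts the disagreement between the pairs as error.

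Other lists held no gene that passed. Of 40 lists 30 had none, and 4 of the 40 had fewer than 3 tested genes. Acta2, smooth muscle actin, was at 0.855 on its brightest probe (limma adjusted p = 0.0535) and between 0.10 and 0.14 on 3 others. Among endothelial genes Egfl7 was at 0.69 and Pecam1 at 0.44. Cdkn1c, an inhibitor of cyclin-dependent kinases, was at -0.84 (adjusted p = 0.0691) and Cdkn1a at -0.58. The immediate early gene Atf3 was at -0.91, with -0.33 with B29 and -1.49 with IgG. Serpinb13, the antibody's target, was detected on fewer than 2 of the 4 arrays and was not tested, and Ctsh, a cathepsin, was at 0.58 (adjusted p = 0.309).

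Set beside the largest diameter class, medium islets lay between the others for acinar genes with both antibodies. The median level of the 36 acinar genes with B29 was 12.58 in small, 10.12 in medium and 6.17 in islets over 200 µm, and with IgG it was 12.26, 9.40 and 8.93. Most of the step with IgG thus lay between small and medium islets. With B29 a further step lay above 200 µm. It rests on 1 array, which had the fewest probes detected of any array in the series (14800). The beta cell list had medians of 8.998, 9.08 and 9.29 with B29, and of 9.07, 9.32 and 9.06 with IgG. The MHC class II list had medians of 6.12, 7.62 and 6.17 with B29, and of 6.37, 6.32 and 6.31 with IgG. Only the medium B29 array was high for that list, and each class had 1 array per antibody, so no order among the classes was tested.

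**Figure D5:**
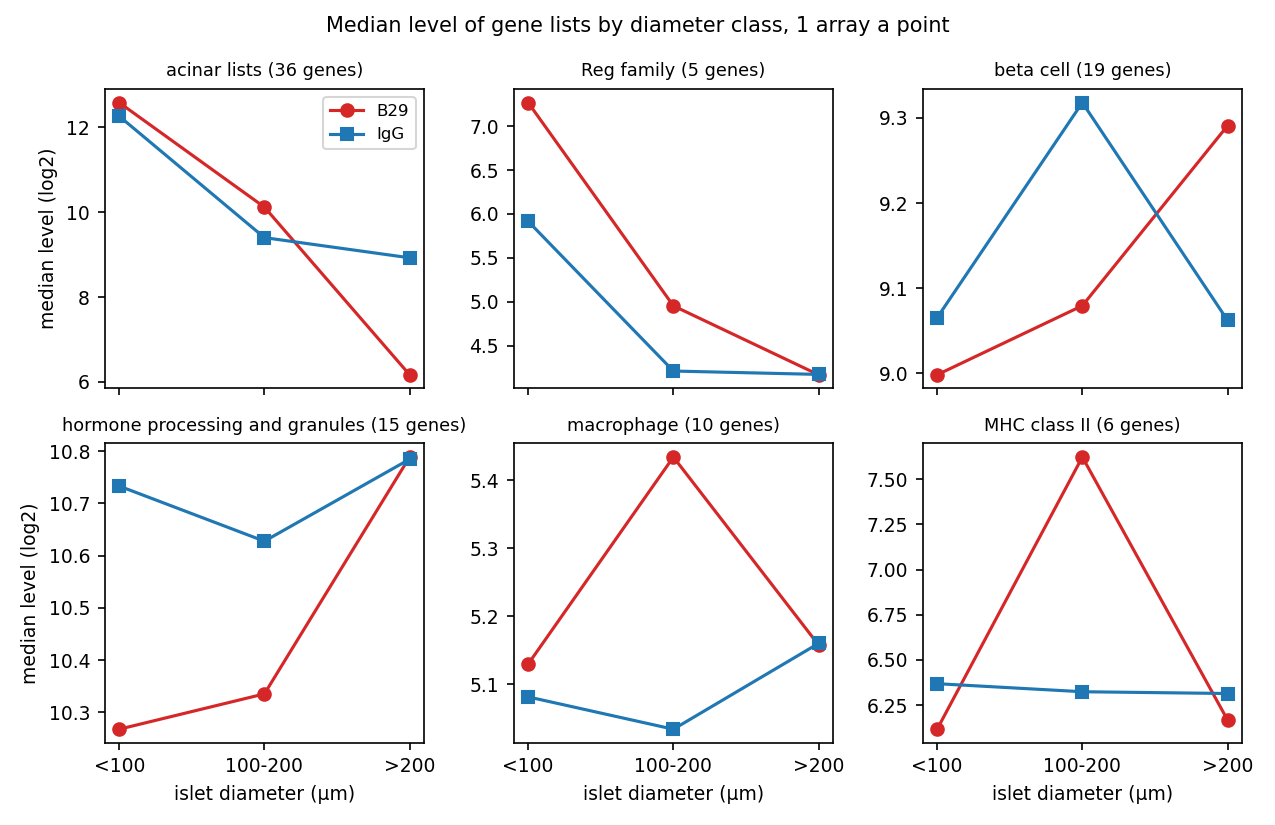
Median log2 level of 6 gene lists by islet diameter class in µm, 1 array a point, red circles for B29 and blue squares for IgG; each panel has its own vertical axis. Acinar genes step down from the smallest class, and the MHC class II median reaches 7.62 on the medium B29 array alone.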

How the data were processed

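RNA of 6 islet samples had been hybridised to 1 Illumina bead array each. The authors deposited raw probe intensity and a detection p-value for each probe, in a table of 46255 rows of which 960 were control rows, and log2 values for 45281 probes. The log2 values matched the neqc function of limma run again on the deposited intensities (normexp background correction with control probes, offset of 16, quantile normalization) within 0.00037. The submitters' processing notes name limma 3.34.9. Quantile normalization gives every array the same set of values, so a probe near the top on every array can differ only a little. Probe names came from RefSeq (GRCm38.p6) by Entrez gene (28620 probes) or transcript (2637), or from the platform's symbol (4527), and 9497 probes had no single name. Of the 4 arrays compared, each had 15096 to 15914 probes detected. Array number limits the precision, with 2 arrays a class.

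Medium minus small was fitted with limma 3.58.1 (R 4.3.3, lmFit and eBayes) on the 4 arrays with antibody as a block. The fit covered 16129 probes, with Benjamini-Hochberg adjustment over all of them. The labels give each class 1 array per antibody but state no pairing of the samples, so the pairing is a choice of this comparison. The fit had 1 residual degree of freedom a probe and 11.33 prior ones. Tested on simulated data with the fitted spread, the fit recovered nearly all large changes but missed most of the smallest simulated ones. Of its calls at an adjusted p under 0.05, 19.4% were false, more than the threshold states. The brightest probe stands for a gene. A gene not detected on either array of the dimmer class has only a bound, given as "at least", from the lowest signal detected there. Named were the 10 genes with the largest differences in each direction among those that passed, filled with others where fewer passed, the 5 highest and lowest with each antibody alone, and members of gene lists. Genes outside these, among them Gal, Cldn10, Fgf21, Gamt, Gnmt, Rab26, Rrbp1, Prdx4, Khk and the Klk1b26 and Klk1b8 kallikreins, were chosen after their values were seen. The comparison and the lists were chosen with earlier results of these data known. Alternatives were other scalings, background corrections, filters, priors, a fit without the block and a fit of all 6 arrays. Each of the 4 compared arrays was also left out, from the fit of all 6 and from the 4. The 22 probes with a word in place of a signal were not used.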

Additional observations from a re-analysis of the deposited data

Results flagged for a closer look

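Socs3, a feedback inhibitor of cytokine signalling, moved in opposite directions with the antibodies: 1.03 with B29 and -0.83 with IgG (log2, medium minus small islets). The red blood cell list did likewise, with a median of 1.01 with B29 and -0.24 with IgG over its 3 tested genes. Each pair is 1 array against 1 array, and the difference between the antibodies was not tested.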

How the results depend on the processing

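The number of calls depended on the setting, and so did the number of probes at least 2-fold apart. Against 11 probes higher and 110 lower, cyclic loess gave 21 higher, median centring 103 higher (the median of all probes then lay at 0.20, against 0.01), detection p under 0.01 gave 19 higher and a trended robust prior 24 higher. Without background correction 0 were higher and 9 lower, with normexp and an offset of 50 there were 0 and 37, without a filter 0 and 0, with all 6 arrays 0 and 14, and without the acinar lists 67 were lower. With no replicate block, which leaves the pairing by antibody out, 7 were higher and 81 lower. The additive fits that leave out an array, given next, start from all 6 arrays. Leaving out each array in turn in the additive fit gave 0 to 3 higher and 0 lower, with 621 to 945 probes at an unadjusted p under 0.05. In fits of 3 arrays with no pairing, chosen after seeing the data, 8 to 19 were higher and 57 to 104 lower, with the lone array assumed to vary like the others. Probes at least 2-fold higher with B29 numbered 167 under median centring, 12 without background correction and 17 with normexp, against 55; with IgG they numbered 181, 7 and 17, against 56; with both antibodies 12, 2 and 2, against 5. Probes at least 2-fold lower with B29 numbered 61 without background correction and 68 with normexp, against 114; with IgG 53 and 62, against 108; with both, 45 without background correction, against 76.

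The median of the acinar lists kept its sign under every setting that gave one, between -2.57 and -1.91 over scalings and background corrections and between -3.07 and -1.28 with an array left out. Of 61 named genes that passed, 61 passed under cyclic loess, 57 under median centring, 26 with normexp, 7 without background correction, 46 with no replicate block, 8 with all 6 arrays, 0 without a filter and 0 in each additive fit that left an array out. Under cyclic loess the sign turned for Amy2a5 (-0.33), Ins2 (-0.19), Gcg (-0.19), Sst (-0.13), Pyy (-0.0053) and G6pc2 (-0.002). With an array left out in the additive fit, Cela2a ranged from -1.54 (without the small IgG array) to 0.0851 (without the small B29 array; 0.0546 without the medium IgG array). Without the medium IgG array Try4 reached 0.01, Try10 0.48 and Amy2a5 0.60, while without the medium B29 array they stood at -2.56, -2.22 and -0.47, and Amy2a5 stood at -0.37 without the small IgG array. Without the small IgG array Khk was at -0.08 and Adgrb3 at -0.0537, against 0.44 and 1.35 without the small B29 array. Without the medium B29 array Cd52 (-0.34, and -0.12 over 3 arrays), Coro1a (-0.10), Cd79b (-0.38, and -0.23 over 3 arrays), Laptm5 (-0.16, and -0.18 over 3 arrays) and H2-Eb1 (-0.17, and -0.0177 over 3 arrays) turned, against 2.45, 2.34, 1.69, 1.26 and 1.42 in that order without the medium IgG array, and Laptm5 stood at -0.0604 without the small B29 array. Socs3 ranged from -0.68 (without the small B29 array; -0.56 over 3 arrays) to 0.88 (without the small IgG array), with -0.52 without the medium B29 array. The cause was not tested. With 2 arrays a class, differences well under 1 on the log2 scale lay mostly below what passed.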

Other observations

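Stress and growth lists held no gene that passed. Of 16 immediate early genes 7 were lower and 4 higher with both antibodies, with a median of -0.12, a sign that turned under some settings. Of 16 ER stress genes 5 were higher and 4 lower with both, with a median of 0.11. Of 13 proliferation genes 5 were higher and 2 lower with both, with a median of 0.08 and Top2a, a topoisomerase of dividing cells, at 0.41. Of 14 endothelial genes 8 were higher and 2 lower with both antibodies, with a median of 0.20. Of 13 fibroblast and matrix genes 3 were higher and 3 lower with both, with a median of -0.05. Beside these counts, 27.1% of all probes tested were higher with both antibodies and 24.9% lower.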
